A study of Mus musculus with 28 samples.

Results

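The comparison set 3 single mouse blastocysts titled MZ_KO against 4 titled M_KO, gene by gene. The embryos were chosen by their titles alone, MZ_KO embryos 2, 6 and 7 and M_KO embryos 1, 3, 4 and 5, which all carry the title prefix C7. They are 7 of the 28 samples that the labels describe. The series holds morulae and blastocysts of CD1 mice, each sequenced whole as a single embryo, and its title names chromatin folding, CTCF and metabolism at the passage between these stages. RNA with a poly(A) tail was copied with a SMART-Seq kit made for very small inputs and read on a HiSeq sequencer.

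The labels give the genotypes only as M_KO and MZ_KO. In this field M usually marks embryos without the maternal store of a gene product, and MZ those that lack the embryo's own product as well. By that usage all 7 embryos lack the maternal store, and MZ_KO embryos also cannot make the product themselves. The sources used here give neither the Cre driver nor the parental crosses. The labels do not say which embryos were littermates or shared a mother, so the p-values below measure only the spread between the embryos fitted. For the gene-by-gene tests of MZ_KO against M_KO, that spread was also taken from the het and WT_flfl blastocysts, which were in the same fit. The other blastocysts are het (4 embryos with a column) and WT_flfl (3 embryos), under the title prefix N89. All of these blastocysts are in sequencing batch 1.

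CTCF is a zinc finger protein that binds DNA at insulators and at many promoters, and it halts the loops that cohesin extrudes along the chromosome. The egg loads the embryo with a store of RNA and protein, which runs down during cleavage while the embryo's own genome takes over. The blastocyst then holds an outer epithelium, the trophectoderm, that pumps fluid into a cavity, and an inner cell mass that divides into epiblast and primitive endoderm. It takes up more glucose and respires more than the earlier embryo.

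Ctcf itself separated the groups. Its level, in CPM (reads of a gene scaled to the same total in every library), was 2.92, 4.22 and 3.72 in MZ_KO embryos 2, 6 and 7, and 53.2, 62.1, 89.4 and 73.2 in M_KO embryos 1, 3, 4 and 5. Every MZ_KO value lay far below every M_KO value. The exact two-sided permutation test gave p = 0.0286, the smallest that 3 embryos against 4 allow. The M_KO mean was 69.5 ± 15.6 CPM (SD, n = 4), the het mean 67.5 ± 9.73 CPM (SD, n = 4) and the WT_flfl mean 95.1 ± 6.02 CPM (SD, n = 3). M_KO and het embryos overlapped, and the lowest WT_flfl embryo (91.6 CPM) lay above the highest M_KO embryo. Read totals ran from 7377302 in M_KO 1 to 27343104 in MZ_KO 7, so M_KO 1 carries the largest counting error. Across genes on the log2(CPM + 1) scale, the correlation between embryos of different groups was 0.812 to 0.873. Within MZ_KO it was 0.885 to 0.916, and within M_KO 0.879 to 0.919. These correlations are across genes, which are not independent replicates.

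Of 15582 genes in the table, 9585 reached 10 CPM in at least 3 blastocysts and were tested. Differences are given throughout as MZ_KO minus M_KO on the log2(CPM + 1) scale, which understates the change of genes near 0. By limma with Benjamini-Hochberg adjustment, 1133 genes (11.8%) passed an adjusted p of 0.05, of which 358 (3.74%) were higher and 775 (8.09%) lower in MZ_KO. The lower genes moved further, with a median size of 1.345 against 0.964 for the higher genes. At least 4-fold differences were found for 226 lower and 54 higher genes, and at least 8-fold for 71 lower and 17 higher genes. The median over all genes tested was -0.032. The 7 embryos of the 2 groups did not overlap for 2120 of the 9585 genes (22.1%), whether or not they passed. MZ_KO lay above in 955 (9.96%) and below in 1165 (12.2%).

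The same fit found 0 of 9585 genes different between M_KO and het (638 at an unadjusted p under 0.05) and 0 between M_KO and WT_flfl (494 at an unadjusted p under 0.05), under the title prefixes C7 and N89. MZ_KO against het gave 1711 genes (17.9%) and MZ_KO against WT_flfl 1265 (13.2%). These comparisons share the MZ_KO or the M_KO embryos with the one described here, so their values are set beside it below without being counted as separate evidence. Leaving out M_KO 1 or MZ_KO 2 lowered the 1133 genes to 727 and 726, and leaving out MZ_KO 6 lowered the 358 higher genes to 218. The higher genes numbered 218 without M_KO 1 and 172 without MZ_KO 2, and the lower genes 509 without M_KO 1.

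**Figure D1:**
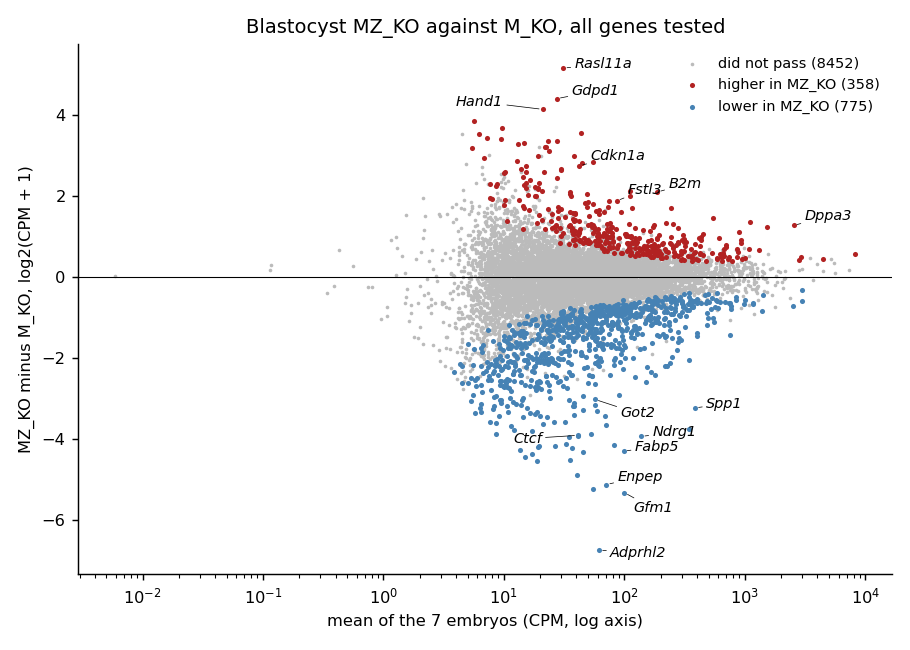
Each point is a tested gene: the x axis gives its mean over the 7 embryos in CPM on a log axis, the y axis its MZ_KO minus M_KO difference in log2(CPM + 1). Red points are the 358 genes higher in MZ_KO, blue points the 775 lower ones, and grey points the 8452 genes that did not pass; blue points reach further from 0 than red ones, down to Adprhl2 at -6.75.

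The promoters of the genes that moved most are shown first where they hold letters of the CTCF motif. RefSeq gave a promoter window (250 bases before to 50 after the start, GRCm38.p6) for 10 of the 12 lower genes and 8 of the 12 higher genes that are described next. The rule that named these genes required that their groups do not overlap, so their separation is no added support. The letters searched, on either strand, were CCA, any 2 bases, AG, any 2 bases and GGC, a plain core of the published CTCF motif. They occurred in 3 of the 10 and in 0 of the 8, and the 3 windows are shown with the match in capitals, each read on the gene's own strand. Adprhl2 lies on the minus strand (chr4:126321654-126321953), Gfm1 on the plus strand (chr3:67429865-67430164) and Ext2 on the minus strand (chr2:93822519-93822818).
Adprhl2: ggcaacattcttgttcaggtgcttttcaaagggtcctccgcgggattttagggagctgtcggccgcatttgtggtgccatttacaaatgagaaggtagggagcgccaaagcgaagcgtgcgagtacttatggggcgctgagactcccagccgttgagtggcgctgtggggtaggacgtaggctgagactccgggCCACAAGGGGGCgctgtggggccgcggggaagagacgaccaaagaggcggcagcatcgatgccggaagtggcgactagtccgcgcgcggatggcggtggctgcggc
Gfm1: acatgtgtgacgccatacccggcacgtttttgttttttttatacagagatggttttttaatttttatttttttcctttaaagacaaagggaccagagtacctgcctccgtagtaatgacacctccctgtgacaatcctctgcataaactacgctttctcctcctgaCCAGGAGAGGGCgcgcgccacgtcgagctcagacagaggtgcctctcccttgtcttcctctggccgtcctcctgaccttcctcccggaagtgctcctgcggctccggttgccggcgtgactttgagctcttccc
Ext2: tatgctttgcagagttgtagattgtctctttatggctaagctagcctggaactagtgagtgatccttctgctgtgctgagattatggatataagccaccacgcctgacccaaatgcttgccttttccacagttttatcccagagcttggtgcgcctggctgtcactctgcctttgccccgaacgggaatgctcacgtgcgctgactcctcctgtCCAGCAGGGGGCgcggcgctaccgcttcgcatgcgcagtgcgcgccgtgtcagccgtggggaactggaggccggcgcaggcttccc

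In all 3 windows the match ran in the direction of the gene, and its first base lay at -56 from the start of Adprhl2, -84 from that of Gfm1 and -36 from that of Ext2. Over every RefSeq window of this length the letters occurred in 2.43%, and over the windows of tested genes in 3.45%. The share was 3.2% for genes that did not pass, 4.48% (12 of 268) for the higher genes and 5.62% (35 of 623) for the lower genes. It was 8.67% (15 of 173) among genes at least 4-fold lower and 12.5% (7 of 56) among genes at least 8-fold lower, against 5.13% (2 of 39) among genes at least 4-fold higher. These shares are a description with no test, and a match of letters is not a measured binding site.

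Adprhl2 (ENSMUSG00000042558, chromosome 4, 126316047 to 126321703, minus strand of GRCm38), which removes ADP-ribose from proteins, was close to absent from MZ_KO. It stood at 0.0417, 0 and 0 CPM in MZ_KO embryos 2, 6 and 7 and at 97.5, 108, 113 and 114 CPM in M_KO embryos 1, 3, 4 and 5. The MZ_KO values rest on 1 read over the 3 embryos, against 8168 reads over the 4 M_KO embryos. From reads pooled over each group, the M_KO level was 8032 times the MZ_KO level, with an exact 95% counting interval of 1441 to 317293. This interval leaves out the spread between embryos. The fitted difference of -6.75 ± 0.23 (SE, adjusted p = 1.06e-11) depends on the pseudocount.

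Gfm1 (ENSMUSG00000027774, chromosome 3, 67430096 to 67476529, plus strand), an elongation factor of mitochondrial protein synthesis, had a difference of -5.33 with an SE of 0.53 (adjusted p = 9.23e-06). Its values were 3.62, 0.0918 and 13.7 CPM in MZ_KO and 197, 151, 135 and 199 CPM in M_KO, in the same embryo order. The MZ_KO embryos varied among themselves, and all were below the lowest M_KO embryo. Ext2 (ENSMUSG00000027198, chromosome 2, 93661028 to 93822568, minus strand), which builds heparan sulfate chains, had 0, 0 and 1.58 CPM in MZ_KO and 33.8, 50.01, 21.8 and 25.3 CPM in M_KO. The groups did not overlap, and the difference was -4.55 ± 0.38 (SE, adjusted p = 1.17e-06).

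Fabp5 (ENSMUSG00000027533, chromosome 3, 10012548 to 10016607, plus strand), a carrier of fatty acids in the cytoplasm, had 7.79, 9.97 and 4.64 CPM in MZ_KO and 221, 121, 210.1 and 117 CPM in M_KO. It fell by 4.30 ± 0.27 (SE, adjusted p = 4.37e-08). Enpep (ENSMUSG00000028024, chromosome 3, 129269175 to 129332720, minus strand), a peptidase of the outer cell surface that marks trophectoderm, had 4.21, 0 and 6.86 CPM in MZ_KO and 126, 142, 89.8 and 127 CPM in M_KO. It fell by 5.13 ± 0.50 (SE, adjusted p = 7.63e-06). The groups stood apart for both genes. Mean Enpep was 274 ± 103 CPM in het and 298 ± 47.2 CPM in WT_flfl, above M_KO at 121 ± 22.3 CPM (SD), and M_KO against het gave an adjusted p of 0.722.

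The other lower genes named by size were AA467197 (-5.23), Ttc5 (-4.89), Sh3bp5 (-4.52), Ankrd46 (-4.46), B3glct (-4.37), BC051665 (-4.32) and Msx1 (-4.27, a homeobox transcription factor). Their MZ_KO values ran from 0 to 3.67 CPM. AA467197 was uneven within M_KO, at 22.6, 205, 134 and 21.3 CPM in embryos 1, 3, 4 and 5. BC051665 rested on M_KO 3 at 269.8 CPM, with 5.49 to 25.4 CPM in the other M_KO embryos, and its adjusted p of 0.0428 became 0.106 without that embryo. It also lost the call without M_KO 1 (0.0804), M_KO 4 (0.0614), MZ_KO 2 (0.0656), MZ_KO 6 (0.12) or MZ_KO 7 (0.112). With voom weights on the recovered reads, an alternative chosen after the data were seen, Gfm1, Ttc5 and Fabp5 passed. The other 9 lower genes named by size did not, with adjusted p from 0.0787 (Adprhl2) to 0.739 (BC051665).

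Among the higher genes, several that M_KO blastocysts scarcely expressed were clearly present in MZ_KO. Rasl11a (ENSMUSG00000029641, chromosome 5, 146845071 to 146847726, plus strand), a small Ras-like protein, had 79.98, 42.5 and 90.5 CPM in MZ_KO and 0, 2.42, 0 and 3.07 CPM in M_KO. It rose by 5.15 ± 0.80 (SE, adjusted p = 0.00059). Gdpd1 (ENSMUSG00000061666, chromosome 11, 87033867 to 87074062, minus strand), a phosphodiesterase of lysophospholipids, had 51.9, 55.8 and 75.3 CPM in MZ_KO and 2.79, 4.59, 2.37 and 0 CPM in M_KO. It rose by 4.40 ± 0.65 (SE, adjusted p = 0.000348). In both genes the lowest MZ_KO embryo was far above the highest M_KO embryo. The naming rule took the genes of largest difference with no overlap, so this gap is no added support.

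Hand1 (ENSMUSG00000037335, chromosome 11, 57828705 to 57832818, minus strand), a transcription factor of trophoblast giant cells, had 37.9, 65.4 and 30.2 CPM in MZ_KO and 0, 0.0966, 1.66 and 11.6 CPM in M_KO. M_KO 5 stood above the other M_KO embryos and below every MZ_KO embryo, and the difference was 4.13 ± 0.87 (SE, adjusted p = 0.00559). Hoxb13 (ENSMUSG00000049604, chromosome 11, 96194316 to 96197447, plus strand), a homeobox gene of the posterior body, had 87.7, 137 and 52.5 CPM in MZ_KO and 6.39, 1.88, 12.9 and 9.38 CPM in M_KO. The groups did not overlap, and it rose by 3.55 ± 0.60 (SE, adjusted p = 0.00117).

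The remaining higher genes named by size were Slc10a6 (3.67, a transporter of steroid sulfates), Cd28 (3.40, a receptor of T cells), Tmem229b (3.34), Hspa2 (3.34, a chaperone of the testis), Plk2 (3.29), Hspg2 (3.28, the basement membrane protein perlecan), Kng1 (2.99, the precursor of kinins) and Nanos1 (2.98, an RNA-binding protein). Their M_KO values ran from 0 to 17.6 CPM. The adjusted p of Nanos1 was 0.0117, and it became 0.0523 without MZ_KO 2 and 0.0509 without MZ_KO 6. With voom weights Rasl11a (0.101), Hand1 (0.12), Slc10a6 (0.161), Cd28 (0.111) and Plk2 (0.286) did not pass, and the other 7 did.

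The nearest tested genes on the chromosome were read for the 24 genes named by size. Beside the 12 higher genes, 5 of 24 neighbours (20.8%, against 3.74% of all genes tested) were also higher and 1 was lower. The 5 were Gtf3a beside Rasl11a (0.80), Ypel2 beside Gdpd1 (0.96), Sap30l beside Hand1 (0.84), Ptpn13 beside Slc10a6 (1.45) and Dnajb11 beside Kng1 (0.59), and the lower one was Usp48 beside Hspg2 (-0.50). Beside the 12 lower genes, 2 of 25 neighbours (8%, near the 8.09% of all genes tested) were also lower and 1 was higher. Mfsd1 beside Gfm1 (-0.81, 106 kb) and Hsph1 beside B3glct (-1.20, 41.9 kb) were lower, and Impa1 beside Fabp5 was higher (1.55, 295 kb). Impa1, an enzyme of inositol synthesis, had 87.2, 106 and 102 CPM in MZ_KO and 36.2, 26.5, 49.9 and 24.1 CPM in M_KO, so these neighbours moved in opposite directions. Over 9561 adjacent pairs of tested genes, 137 had both genes called, 30 with both higher, 73 with both lower and 34 in opposite directions. The numbers that unlinked genes would give were not computed, so these counts are a description.

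Every nutrient transporter and glycolysis gene that passed was lower in MZ_KO. Of 11 tested nutrient transporters (15 in the list), 0 rose and 5 fell (45.5%, against 8.09% of all genes), and all 11 had a difference below 0, with a median of -0.95. Slc16a1, which carries lactate and pyruvate, had 83.3, 109 and 95.5 CPM in MZ_KO and 211, 213, 263 and 196 CPM in M_KO. It fell by 1.19 ± 0.19 (SE, adjusted p = 0.00061) with no overlap of the groups. Slc2a1, a glucose carrier, fell by 2.26 (9.79, 10.4 and 19.5 CPM against 73.7, 35.7, 54.1 and 118 CPM). Slc6a8, a creatine carrier, fell by 1.13 and Slc27a4, a fatty acid carrier, by 1.12, but these calls were not stable. Slc6a8 lost it without M_KO 3 (0.0546), MZ_KO 2 (0.0518) or MZ_KO 7 (0.107), and Slc27a4 without M_KO 1 (0.079), M_KO 3 (0.06), M_KO 4 (0.129), MZ_KO 6 (0.0828) or MZ_KO 7 (0.175). The count of 5 became 3 without M_KO 1, M_KO 3, M_KO 4 or MZ_KO 2, and 2 without MZ_KO 7.

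In glycolysis 0 of 14 tested genes rose and 4 fell (28.6%, against 8.09% of all genes). Of the 14, 12 were below 0, with a median of -0.42. Gpi1, an early enzyme of the pathway, had 124, 139 and 142 CPM in MZ_KO and 316, 213, 305 and 269 CPM in M_KO and fell by 1.01 ± 0.18 (SE, adjusted p = 0.00185). Pkm (-0.76), Pgam1 (-0.68) and Aldoa (-0.65) were the others. Pgam1 lost the call without MZ_KO 6 (adjusted p = 0.0831). Among 24 tested genes of pyruvate use, the tricarboxylic acid cycle and the malate-aspartate shuttle, 7 fell (29.2%, against 8.09% of all genes). In this list 2 rose (8.33%, against 3.74% of all genes, and 1 gene without MZ_KO 2). The median was -0.41.

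Got2 (ENSMUSG00000031672, chromosome 8, 95864134 to 95888547, minus strand), the mitochondrial aspartate aminotransferase, was the gene of this list that moved most. It had 14.3, 9.64 and 7.63 CPM in MZ_KO and 83.3, 115, 97.9 and 71.4 CPM in M_KO and fell by 3.03 ± 0.23 (SE, adjusted p = 5.54e-07). Its cytosolic partner Got1 (155, 157 and 167 CPM against 299.9, 301, 325 and 430.5 CPM) fell by 1.06, and Idh1, the cytosolic isocitrate dehydrogenase, by 1.46. Idh2, the mitochondrial one, went the other way. It had 356, 356 and 346 CPM in MZ_KO and 202, 223, 167 and 236 CPM in M_KO and rose by 0.78 ± 0.16 (SE, adjusted p = 0.00444). None of these genes overlapped between the groups.

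Of 24 genes of fatty acid oxidation and binding, 20 were below 0, with a median of -0.42. Of the 24, 4 fell (16.7%, against 8.09% of all genes) and 0 rose. Beside Fabp5 these were the oxidation enzymes Acaa2 (-1.47), Acadm (-0.78) and Hadh (-0.50). Acaa2 stood at 108, 88.0 and 88.9 CPM in MZ_KO and at 254, 242, 299 and 266 CPM in M_KO, again with no overlap (SE 0.15, adjusted p = 1.02e-05). Hadh, with an adjusted p of 0.0408, lost the call without M_KO 1 (0.0965), M_KO 4 (0.119), MZ_KO 2 (0.147), MZ_KO 6 (0.0759) or MZ_KO 7 (0.0649). In synthesis pathways, 6 of 28 nucleotide, serine and one-carbon genes fell (21.4%, against 8.09% of all genes) and 0 rose. Those that fell included Gart (-0.97), Mthfd2 (-1.95), Adsl (-0.87) and Adss (-0.76). Adsl missed without MZ_KO 7 (0.0694) and Adss without MZ_KO 2 (0.0516). Mthfd2 missed with only MZ_KO and M_KO in the fit (0.0535) and with voom weights (0.112).

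Of 77 tested nuclear-encoded genes of oxidative phosphorylation, 11 fell (14.3%, against 8.09% of all genes) and 0 rose. The median of the 77 was -0.07. Ndufb7, a subunit of complex I, had 24.5, 18.2 and 20.5 CPM in MZ_KO and 107, 139.6, 131 and 95.5 CPM in M_KO and fell by 2.43 ± 0.19 (SE, adjusted p = 5.54e-07). Ndufb10 (-1.57), Ndufab1 (-1.31) and Atp5g2 (-1.28) followed, and the groups did not overlap in any of the 4. The count of 11 became 7 without M_KO 1, M_KO 4 or MZ_KO 6. Of the 15 transcripts encoded in mitochondrial DNA, 0 passed in either direction, and their median was 0.02.

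Of 14 translation factors of mitochondria 3 fell (21.4%, against 8.09% of all genes) and 0 rose. The 3 were Gfm1, the isoleucyl-tRNA synthetase Iars2 (-1.78) and the elongation factor Tsfm (-1.44). Of 78 mitochondrial ribosomal proteins 2 fell (2.56%, against 8.09% of all genes) and 3 rose (3.85%, near the 3.74% of all genes). The median was 0.13, and 1 rose without M_KO 3, M_KO 4 or MZ_KO 6. Mrps2 had 6.75, 17.8 and 4.42 CPM in MZ_KO and 100.3, 113, 115 and 139.7 CPM in M_KO and fell by 3.66 ± 0.31 (SE, adjusted p = 1.17e-06). Mrps16 (ENSMUSG00000049960, chromosome 14, 20389304 to 20393634, minus strand) had 219, 193 and 163 CPM in MZ_KO and 56.2, 54.7, 65.6 and 54.7 CPM in M_KO and rose by 1.71 ± 0.22 (SE, adjusted p = 0.000121). These subunits of 1 ribosome thus moved in opposite directions, each with no overlap of the groups. Mrpl23 (-2.80) fell, but its adjusted p was 0.177 with voom weights. Mrps22 (0.59) rose with an adjusted p of 0.0353 that became 0.0616 without M_KO 3, 0.0899 without M_KO 4, and 0.0639, 0.063 and 0.116 without MZ_KO 2, 6 and 7. In protein import 2 of 29 rose (6.9%, against 3.74% of all genes) and 3 fell (10.3%, near the 8.09% of all genes). Among the lower ones were the matrix chaperones Hspd1 (-0.66) and Hspe1 (-0.69). Hspe1 lost the call without M_KO 1 (0.0702) or MZ_KO 7 (0.094), which left 1 lower gene. The 2 higher ones became 1 without M_KO 4, M_KO 5 or MZ_KO 2.

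Ribosomal proteins of the cytosol gave the most higher genes of the 35 lists. Of 80 tested, 18 rose (22.5%, against 3.74% of all genes) and 0 fell, 72 had a difference above 0, and the median was 0.32. Their summed level was 36009 to 42903 CPM in MZ_KO and 31185 to 34810 CPM in M_KO, so the lowest MZ_KO embryo was above the highest M_KO embryo. Rps26, a protein of the small subunit, had 298, 248 and 263 CPM in MZ_KO and 128, 173, 154 and 161 CPM in M_KO and rose by 0.81 ± 0.16 (SE, adjusted p = 0.00426), with no overlap of the groups. Rpl31 (0.63) and Rpl41 (0.58) rose too. The differences were small, and the count depended on the embryos: it was 10 without M_KO 1 or M_KO 4, 11 without M_KO 5 or MZ_KO 6, and 4 (with 1 lower) without MZ_KO 2. Reads of ribosomal proteins can be split with their pseudogenes in counting, so single members are uncertain. Of 39 proteasome subunits 3 rose (7.69%, against 3.74% of all genes) and 2 fell (5.13%, against 8.09%). The lower 2 were Psmd6 (-0.83) and Psmd1 (-0.62), and the list median was 0.23. The 3 became 1 without M_KO 1, M_KO 3, M_KO 4 or MZ_KO 6 and 0 without MZ_KO 2 or MZ_KO 7.

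Of 47 tested genes of DNA replication and entry into S phase 36 were below 0, and the median was -0.44. In this list 12 fell (25.5%, against 8.09% of all genes) and 1 rose (2.13%, against 3.74%). Rpa1, the large subunit of the protein that coats single-stranded DNA, had 28.2, 31.2 and 21.6 CPM in MZ_KO and 122, 75.6, 76.7 and 99.4 CPM in M_KO and fell by 1.74 ± 0.21 (SE, adjusted p = 5.7e-05). Uhrf1 (-1.78), which brings the maintenance methyltransferase to new DNA, Rfc5 (-1.42), a subunit of the clamp loader, and the polymerase subunit Pold1 (-1.30) fell as well. The lowest M_KO value lay above the highest MZ_KO value for each of them. They were named as members of smallest p, so this separation is no added support.

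The gene of this list that rose, named after its values were seen, was Ccne1, the cyclin of the G1/S transition. It had 399, 373 and 405 CPM in MZ_KO and 128, 65.1, 130.1 and 191 CPM in M_KO, a difference of 1.70 ± 0.35 (SE, adjusted p = 0.0051). The count of 12 lower genes was 8 without M_KO 1 or M_KO 4. Of 44 genes of mitosis and the spindle checkpoint 4 rose (9.09%, against 3.74% of all genes) and 2 fell (4.55%, against 8.09%), with a median of 0.10, 2 rose without M_KO 1, M_KO 4 or MZ_KO 2, and 0 fell without M_KO 1, M_KO 4, MZ_KO 6 or MZ_KO 7. Cdc25c, the phosphatase that starts mitosis, rose by 1.07 ± 0.22 (95.8, 114 and 132 CPM against 51.6, 47.3, 64.5 and 51.3 CPM) and Aurka, a spindle pole kinase, by 0.55. Cenpa (0.53) and Ccnb2 (-0.77) were less firm: Cenpa lost the call without M_KO 1 (0.0766), M_KO 4 (0.0553), MZ_KO 2 (0.11) or MZ_KO 7 (0.0771), and Ccnb2 without M_KO 1 (0.0898), M_KO 4 (0.0739), MZ_KO 6 (0.157) or MZ_KO 7 (0.0588).

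Within the columns whose headers carry S15 to S22, which hold 2 MZ_KO and 3 M_KO embryos, several of these counts were lower. There 3 cytosolic ribosomal proteins rose, and 5 genes of DNA replication, 5 of oxidative phosphorylation, 2 nutrient transporters and 2 genes of nucleotide, serine and one-carbon synthesis fell. With only MZ_KO and M_KO in the fit, 11 cytosolic ribosomal proteins rose, and 6 genes of oxidative phosphorylation and 3 nutrient transporters fell.

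**Figure D2:**
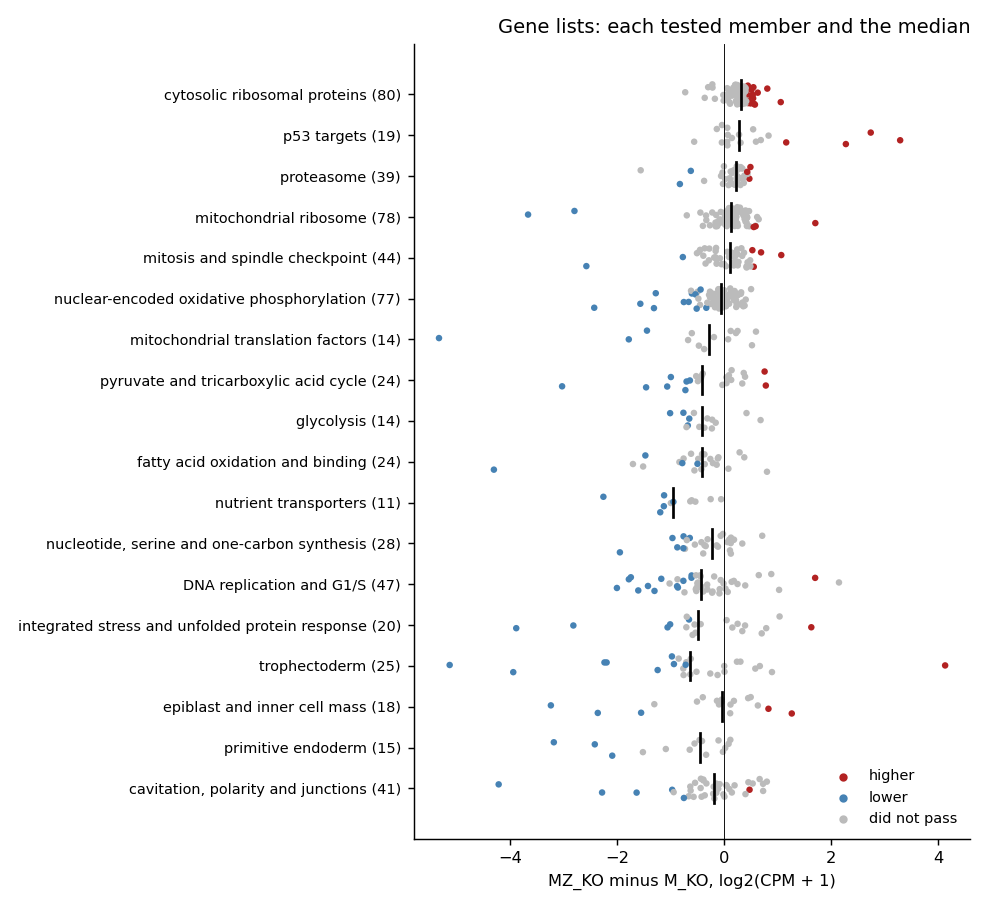
Each point is a tested member of a list (the number tested in brackets), placed by its MZ_KO minus M_KO difference in log2(CPM + 1), with the list's median as a black bar. Red members passed as higher, blue as lower, and grey did not pass; the medians run from 0.32 for cytosolic ribosomal proteins to -0.95 for nutrient transporters.

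The lineage lists held genes that fell, fewer that rose and many that did not pass. In whole embryos, fewer cells of a type and less RNA in each cell cannot be told apart. Of 25 tested trophectoderm genes 8 fell (32.0%, against 8.09% of all genes) and 1, Hand1, rose (4.0%, near the 3.74% of all genes). The list median was -0.63. Eomes (ENSMUSG00000032446, chromosome 9, 118478212 to 118486132, plus strand), a transcription factor of trophoblast stem cells, had 41.6, 39.2 and 63.3 CPM in MZ_KO and 297, 171, 283 and 178 CPM in M_KO. It fell by 2.24 ± 0.40 (SE, adjusted p = 0.0019). Ndrg1 had 12.2, 4.09 and 27.6 CPM in MZ_KO and 119, 509, 127 and 169.7 CPM in M_KO, where M_KO 3 was far above the rest, and fell by 3.94 ± 0.56 (SE, adjusted p = 0.000277). The count of 8 became 4 without MZ_KO 2 and 5 without MZ_KO 6.

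Cdx2, the factor that sets up trophectoderm, had 149, 109 and 235 CPM in MZ_KO and 266, 295, 215 and 252 CPM in M_KO. MZ_KO 7 fell within the M_KO range, and the difference of -0.71 ± 0.26 (SE) had an adjusted p of 0.0863. Without MZ_KO 7 that p was 0.0213. Gata3, which acts beside Cdx2, did not pass (-0.26, adjusted p = 0.517). The summed level of 8 trophectoderm markers was 3796 to 4944 CPM in MZ_KO and 5386 to 9215 CPM in M_KO. Most of that sum was the keratins Krt8 (mean 1789 CPM in MZ_KO and 3014 CPM in M_KO) and Krt18 (1872 and 2745 CPM). The means of 2 of the 8 lay the other way, Tfap2c (171.7 CPM in MZ_KO and 148.2 CPM in M_KO) and Krt7 (54.9 and 43.9 CPM).

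Of 18 tested genes of epiblast and inner cell mass, 2 rose (11.1%, against 3.74% of all genes) and 3 fell (16.7%, against 8.09%). The 2 became 1 without M_KO 1, M_KO 4, MZ_KO 2 or MZ_KO 6. Dppa3 (ENSMUSG00000046323, chromosome 6, 122626410 to 122630272, plus strand), which protects methylated DNA in the early embryo and is abundant in the egg, had 4436, 3514 and 3489 CPM in MZ_KO and 1392, 1827, 1608 and 1509 CPM in M_KO. It rose by 1.26 ± 0.14 (SE, adjusted p = 2.51e-05) with no overlap. Nanog, a core factor of pluripotency, had 292, 432 and 239 CPM in MZ_KO and 136, 189, 148 and 245 CPM in M_KO, so M_KO 5 reached the MZ_KO range. Its difference of 0.83 ± 0.24 (SE, adjusted p = 0.0318) lost the call without M_KO 1 (0.0933), M_KO 4 (0.0834), MZ_KO 2 (0.0679) or MZ_KO 6 (0.163). Pou5f1, the other core factor, did not pass (0.11 ± 0.16, SE, adjusted p = 0.704).

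The lower members of that list were Spp1, Tdgf1 and Tdh. Spp1, the secreted matrix protein osteopontin, had 51.9, 45.7 and 111 CPM in MZ_KO and 751, 612, 469.8 and 660.1 CPM in M_KO and fell by 3.24 ± 0.26 (SE, adjusted p = 7.04e-07). Tdgf1, a co-receptor of Nodal, fell by 1.55 and Tdh, a threonine dehydrogenase of pluripotent cells, by 2.36. The groups stood apart for all 3.

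In primitive endoderm 3 of 15 tested genes fell (20%, against 8.09% of all genes) and 0 rose. Gata6, the earliest factor of the lineage, had 146, 139 and 175 CPM in MZ_KO and 136, 113, 158 and 177 CPM in M_KO, which overlap entirely (0.08 ± 0.27, SE, adjusted p = 0.876). The later factors differed. Sox17 had 9.08, 6.15 and 9.14 CPM in MZ_KO and 49.6, 27.6, 38.8 and 36.7 CPM in M_KO and fell by 2.09 ± 0.54 (SE, adjusted p = 0.0196), and this p became 0.0552 without M_KO 1 and 0.0678 without MZ_KO 6. Gata4, at 0, 0 and 2.54 CPM against 20.6, 9.04, 7.68 and 18.5 CPM, fell by 3.18, and the laminin chain Lamb1 by 2.42. With voom weights the adjusted p of Sox17, Gata4 and Lamb1 was 0.166, 0.552 and 0.0582, so 0 of the list passed there.

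Genes of the cavity and its epithelium had 5 lower (12.2%, against 8.09% of all genes) and 1 higher (2.44%, against 3.74%) of 41 tested. The higher one, named after its values were seen, was the tight junction protein Cldn7 (0.48), and it lost the call without any single embryo other than M_KO 5. Ezr, which links the cortex to microvilli, had 32.6, 20.7 and 36.3 CPM in MZ_KO and 177, 95.3, 154 and 170.3 CPM in M_KO and fell by 2.28 ± 0.30 (SE, adjusted p = 0.000145). Atp1b1, a subunit of the sodium pump that drives fluid into the cavity, had 68.0, 43.9 and 73.3 CPM in MZ_KO and 151, 88.7, 141 and 106 CPM in M_KO and fell by 0.97. The water channel Aqp8 fell by 4.21 (adjusted p = 0.656 with voom weights), and Ctnna1, an adaptor of adherens junctions, by 0.75 (adjusted p = 0.0645 without MZ_KO 6). The count of 5 became 3 without MZ_KO 6 and 10 without MZ_KO 7.

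Targets of p53, the transcription factor of the DNA damage response, had 4 of 19 tested members higher (21.1%, against 3.74% of all genes) and 0 lower, with a median of 0.28. The 4 became 2 with voom weights and 1 within the columns whose headers carry S15 to S22. Cdkn1a (ENSMUSG00000023067, chromosome 17, 29090976 to 29100727, plus strand), an inhibitor of cyclin-dependent kinases, had 82.6, 70.1 and 97.4 CPM in MZ_KO and 11.4, 12.3, 11.7 and 10.7 CPM in M_KO. It rose by 2.74 ± 0.59 (SE, adjusted p = 0.00665), and the M_KO embryos were nearly equal to each other. Mdm2, the ligase that removes p53, had 77.7, 76.0 and 96.3 CPM in MZ_KO and 35.5, 23.7, 37.1 and 56.5 CPM in M_KO and rose by 1.16 ± 0.25 (SE, adjusted p = 0.0062). Plk2, a kinase induced by p53, had 16.2, 39.1 and 35.5 CPM in MZ_KO against 0, 7.01, 3.07 and 1.46 CPM in M_KO. Trp53inp1 rose by 2.28, with an adjusted p of 0.0182 that became 0.0507 without M_KO 1, 0.0506 without M_KO 4, 0.0709 without MZ_KO 6 and 0.0504 without MZ_KO 7.

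The size of these differences depended on the control. For all 4 genes the M_KO mean was below the het and the WT_flfl mean. Cdkn1a averaged 26.4 ± 31.2 CPM in het, 45.5 ± 27.9 CPM in WT_flfl and 11.5 ± 0.672 CPM in M_KO (SD), and MZ_KO against WT_flfl gave a difference of 1.05 with an adjusted p of 0.297. Mdm2 averaged 65.6 ± 4.48 CPM in het and 76.3 ± 17.1 CPM in WT_flfl, while MZ_KO averaged 83.3 ± 11.3 CPM and M_KO 38.2 ± 13.6 CPM (SD). MZ_KO against WT_flfl gave 0.14 for Mdm2, with an adjusted p of 0.775. M_KO against WT_flfl did not pass either (-1.69, adjusted p = 0.846 for Cdkn1a, and -1.02, adjusted p = 0.666 for Mdm2). Of 8 tested Bcl2 family genes, which regulate apoptosis, 0 passed.

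**Figure D3:**
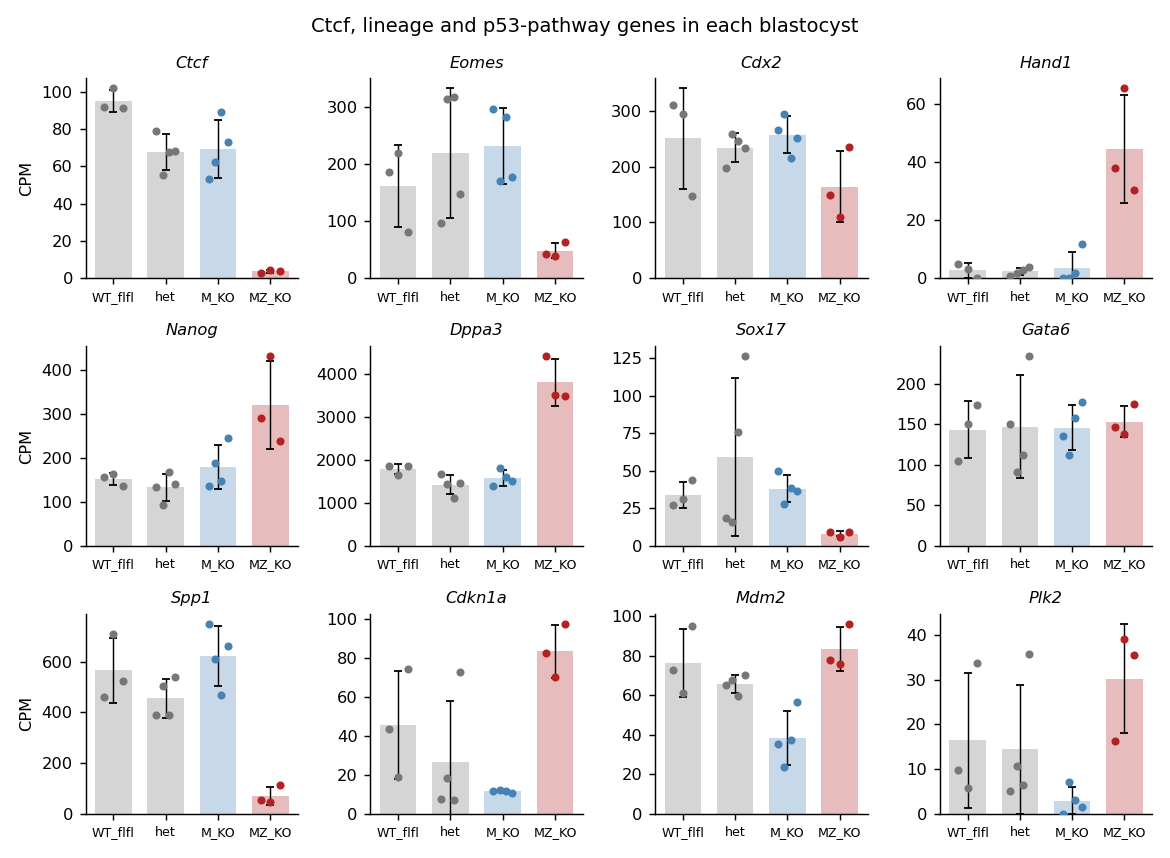
Points are single blastocysts, bars the group mean in CPM from 0 and whiskers 1 SD (drawn down to 0 where they would go below), for WT_flfl (3), het (4), M_KO (4) and MZ_KO (3). MZ_KO stands apart from M_KO for Ctcf, Eomes, Hand1, Dppa3, Sox17, Spp1, Cdkn1a, Mdm2 and Plk2, and overlaps it for Cdx2, Nanog and Gata6; for Mdm2 the WT_flfl and het embryos lie closer to MZ_KO than to M_KO.

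Among 20 tested members of the integrated stress response and the unfolded protein response, 5 fell (25%, against 8.09% of all genes). In this list 1 rose (5%, near the 3.74% of all genes). Asns, which makes asparagine and is a classic target of ATF4, had 6.9985, 4.59 and 3.39 CPM in MZ_KO and 119, 56.9, 105 and 72.9 CPM in M_KO and fell by 3.89 ± 0.49 (SE, adjusted p = 9.41e-05, and 0.0818 with voom weights). Cth, an enzyme of cysteine synthesis also under ATF4, had 97.3, 84.8 and 102 CPM in MZ_KO and 33.4, 23.1, 35.9 and 28.3 CPM in M_KO and rose by 1.63 ± 0.24 (SE, adjusted p = 0.000411). The members thus did not share a direction. The chaperones of the endoplasmic reticulum Hsp90b1 (-1.01) and Pdia4 (-1.06) fell. The count of 5 became 3 without MZ_KO 6.

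Single genes of other lists differed with large effects. B2m, the shared light chain of class I antigen-presenting molecules, had 392.2, 332 and 274 CPM in MZ_KO and 61.7, 89.9, 57.9 and 106 CPM in M_KO. It rose by 2.09 ± 0.35 (SE, adjusted p = 0.000997). Of 12 tested antigen presentation genes 1 was higher (8.33%, against 3.74% of all genes) and 1 lower (8.33%, near the 8.09% of all genes). The lower count was 0 without M_KO 4, MZ_KO 2 or MZ_KO 6. Fstl3, a secreted inhibitor of activin, had 155, 138 and 148 CPM in MZ_KO and 26.2, 50.9, 31.7 and 56.0 CPM in M_KO and rose by 1.87 ± 0.34 (SE, adjusted p = 0.00234). In its list of 21 tested FGF and activin genes 1 rose (4.76%) and 2 fell (9.52%), both near the shares of all genes. The lower ones were Tdgf1 and Fgfr2 (-0.94). Fgfr2 lost the call without M_KO 1 (0.0955), M_KO 4 (0.087), M_KO 5 (0.0573), MZ_KO 2 (0.204) or MZ_KO 6 (0.11).

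Of 23 tested genes of cohesin and of CTCF-associated proteins, 0 rose and 2 fell (8.7%, near the 8.09% of all genes), Ctcf and Adprhl2, the latter placed in that list with its behaviour in these data known. Of 14 tested imprinted genes 2 fell (14.3%, against 8.09% of all genes), H13 (-1.13) and Zfp64 (-2.42). The 22 clustered protocadherins, which use CTCF to choose promoters in neurons, had 0 tested members. Of 12 immediate early and heat shock genes 2 fell (16.7%, against 8.09% of all genes), the chaperone Hsph1 (-1.20) and Junb (-2.41). Of 32 lysosome genes 3 fell (9.38%, near the 8.09% of all genes, and 1 without M_KO 1, M_KO 5 or MZ_KO 2). Oocyte transcripts (4 tested) and genes of the 2-cell stage (2 tested) had 0 that passed.

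The share of genes that passed ran from 8.52% on chromosome 17 to 15.9% on chromosome 1. The median gene span was 15.2 kb for higher genes, 24.7 kb for lower genes and 22.1 kb for genes that did not pass. Protein-coding genes made up 93.9% of the higher, 98.1% of the lower and 94.7% of all tested genes.

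Morulae gave a comparison that shares no embryo with this one. There, 4 embryos titled del, which the labels do not explain, were set against 3 het embryos of the same title prefix, N2. Ctcf was 0.421, 2.98, 0 and 5.81 CPM in del embryos 2, 3, 4 and 6 and 26.1, 35.1 and 54.6 CPM in het embryos 1, 5 and 7. Of 9953 genes tested 1 passed (0.01%), Adprhl2, with a difference of -4.89 ± 0.75 (SE, adjusted p = 0.0318), and 503 had an unadjusted p under 0.05. Adprhl2 had 0.674, 5.96, 0.359 and 0 CPM in del and 33.8, 86.6 and 67.3 CPM in het, with no overlap. It lost the call without del 2, del 4, del 6, het 5 or het 7, where the count was 0. The del embryo 6 had 1635553 reads, the fewest of all.

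Of the 775 lower genes 665 were tested in morulae, and 471 (70.8%) were below 0 in del, with a median of -0.37 against -1.25 for the same genes in blastocysts. Of the 358 higher genes 342 were tested, and 231 (67.5%) were above 0, with a median of 0.18 against 0.94 in blastocysts. Among 7565 genes that did not pass in blastocysts, 52.2% were below 0 and 47.8% above. Genes are not independent replicates, and these shares are a description.

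The difference between the stages was tested gene by gene over 8572 genes, and 4 passed (0.0467%, with 733 at an unadjusted p under 0.05). Stage and sequencing batch cannot be told apart here. Gfm1 had 78.6, 66.0, 52.5 and 19.7 CPM in del and 69.3, 95.9 and 119 CPM in het morulae, a difference of -0.92 against -5.33 in blastocysts (adjusted p of the difference = 0.0135). Rasl11a had 1.26, 1.56, 0 and 0 CPM in del and 9.9999, 7.39 and 5.12 CPM in het morulae, a difference of -2.41 against 5.15 in blastocysts (0.00351). Lmf2, a maturation factor of lipases, had 1.09 in morulae against -2.09 in blastocysts, and Plpp5, a lipid phosphatase, -0.24 against -3.44 (adjusted p of the difference = 0.0135 for each). Slc16a1, which fell in blastocysts, had a morula difference of 0.81, but the difference between stages did not pass (adjusted p = 0.125).

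**Figure D4:**
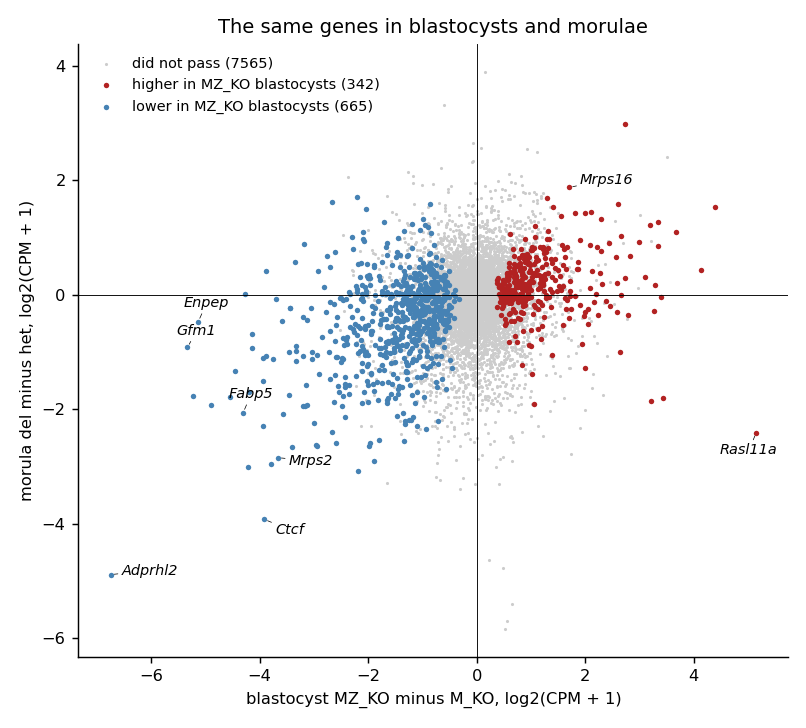
Each point is a gene tested at both stages, placed by its blastocyst MZ_KO minus M_KO difference (x axis) and its morula del minus het difference (y axis), both in log2(CPM + 1). Red and blue points are the genes higher (342) and lower (665) in MZ_KO blastocysts; Adprhl2 and Ctcf are far below 0 at both stages, Mrps2 and Mrps16 keep their sides, and Rasl11a lies on opposite sides.

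The label of whole blastocyst was checked against 8 trophectoderm, 5 epiblast and 5 primitive endoderm markers. All but Sox7 had values, and these were above 0 in all 7 embryos apart from Gata4 at 0 CPM in MZ_KO 2 and 6. The 8 blood markers summed to 1638 to 7471 CPM in MZ_KO and 1251 to 3693 CPM in M_KO, most of it from the haemoglobins. Of the white cell genes, Ptprc was at most 0.0919 CPM. Lyz2 reached 35.5 CPM in MZ_KO 7 and 16.1 CPM in M_KO 1, and in M_KO 3 Cd52 was at 8.99 CPM and Tyrobp at 7.88 CPM. Of 8 granulosa and cumulus markers 3 were in the table, Star, Hsd3b1 and Inha, and their sum ran from 1.10 to 101.1 CPM in MZ_KO and from 5.23 to 1020.0 CPM in M_KO, highest in M_KO 3 (Star 707 CPM). Of 6 oviduct markers 5 were in the table, and without Epcam, which the embryo also expresses, Ovgp1 was the highest at up to 104 CPM in M_KO 1. The part of these other cells in the differences was not tested. Y-linked genes were present in MZ_KO 2 and 7 and in M_KO 1 and 4, so each group held embryos with and without them.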

How the data were processed

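For each stage the authors deposited log2 values, which behaved as log2 CPM with 0.5 reads added. The submitters' processing notes name cutadapt 1.14, Bowtie2 2.2.9, RSEM 1.3.1 and the builds GRCm38 and mm10. The sources used here do not give roles or strand use, and reads of paralogs or antisense partners may be shared. Undoing the logarithm and the offset gave whole reads for 100% of values (tolerance 0.01 reads). Of the 15582 blastocyst genes 15575 matched GENCODE M21. The 3 entries naming no mouse gene (at most 0.0113% of an embryo's reads) stayed out of the tests, and 0 columns belonged to other samples.

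Tests used log2(CPM + 1), with a pseudocount of 1 CPM, in limma 3.58.1 (R 4.3.3), all 14 blastocysts in 1 fit with a trended variance, two-sided, Benjamini-Hochberg over all genes tested. Interaction with the morulae used effects taken within each table. Tested on simulated data for MZ_KO against M_KO over 9585 genes, the fit recovered 93% of 100 genes changed 4-fold and 22% of 100 changed 2-fold, with 5 false calls. The simulation gave every gene the same relative spread beyond counting error, a set value not estimated from these embryos. Genes named are the 12 of largest difference each way whose groups do not overlap and whose higher group averages at least 20 CPM, unnamed clones and Y-linked genes left out, with Ctcf, 7 lineage genes and up to 4 called members of smallest p from each of 35 lists. Other names are given as part of a small count. Some results that this rule gave are not reported here. Comparison, members and lists were chosen with earlier results of these data known. Figures used Python 3.11.15 and matplotlib 3.10.9.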

Additional observations from a re-analysis of the deposited data

Results flagged for a closer look

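In 11 of 111 groups of 4 M_KO embryos checked, 1 for each named gene, a single embryo stood apart from the other 3 by Dixon's 95% criterion. By chance this criterion picks about 1 in 20 independent groups. These groups all hold the same 4 embryos, and most of the genes were named by rules that used their values. The count therefore cannot be read as an excess. M_KO 3 was the embryo in 5 genes: BC051665 at 269.8 CPM (others 5.49 to 25.4), Ndrg1 at 509.5 CPM (119 to 169.7), Adss at 196 CPM (112 to 123), Hsp90b1 at 457 CPM (658 to 697) and H13 at 73.3 CPM (110.3 to 116). M_KO 1, the shallowest library, was the embryo in 3 genes: Aldoa at 1276 CPM (1425 to 1441), Acadm at 256 CPM (311 to 316) and Cenpa at 147 CPM (161 to 164). M_KO 5 stood out for Hand1 at 11.6 CPM (0 to 1.66) and Hsph1 at 838 CPM (562 to 577), and M_KO 4 for Mrps16 at 65.6 CPM (54.7 to 56.2).

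The differences of 4 genes differed between blastocysts and morulae by the test of that difference in limma. The value is the blastocyst difference minus the morula one: -3.19 for Lmf2, -4.41 for Gfm1, 7.56 for Rasl11a and -3.21 for Plpp5.

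The blastocyst table holds 3 entries that name no mouse gene. LacZ was 83.1 ± 32.9 CPM in MZ_KO (SD, n = 3) and 25.7 ± 14.7 CPM in M_KO (SD, n = 4), with no overlap (exact permutation p = 0.0286, the smallest possible). Neomycine was 0 CPM in every MZ_KO embryo and 7.81 ± 0.897 CPM in M_KO, and Puromycin 0.139 ± 0.241 CPM and 11.9 ± 5.78 CPM (SD, exact permutation p = 0.0286 for each). In het the means were 28.0, 9.17 and 7.06 CPM, and in WT_flfl 0.543, 25.6 and 23.4 CPM, in the same order.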

How the results depend on the processing

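The 1133 genes numbered 787 with voom weights on recovered reads, 789 when only MZ_KO and M_KO were fitted, and 535 within the columns whose headers carry S15 to S22, which leaves 2 MZ_KO and 3 M_KO embryos (127 higher, 408 lower). Lower genes numbered 507 with only those groups in the fit and 432 with voom. Voom and the S-number settings were chosen after the data were seen. Leaving out 1 embryo gave 726 to 1112 genes, 172 to 359 higher and 509 to 753 lower, 0 to 3 in morulae and 2 to 25 between the stages (25 without morula het 1, 16 without morula del 6, 8 without blastocyst MZ_KO 7, 7 without blastocyst M_KO 5, 2 without blastocyst MZ_KO 6). Ctcf differed by -71.29 to -59.23 CPM, with exact permutation p of 0.0667 or 0.1, the smallest such designs allow. Other pseudocounts, filters, scalings and a Y-linked or S-number covariate gave 1082 to 1185 genes. M_KO against het gave 0 in every setting run.

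Of 107 named genes that passed, 51 kept the call under all 18 alternatives, 25 lost it when 1 embryo was left out, 53 under another alternative (34 within S15 to S22, 29 with voom) and 0 reversed. Gata6, which did not pass, ran from -0.0325 (without M_KO 3) to 0.1838 (without M_KO 5) when 1 embryo was left out and was also below 0, at -0.014, without MZ_KO 7. The planned count models on recovered reads were not run, and voom weights on those reads were used in their place. No paired analysis was possible because the embryo numbers of MZ_KO and M_KO run through 1 series and share no number. Depth limits M_KO 1 most. In the simulation, 22% of genes changed 2-fold were recovered, at a set spread, so many differences of that size may have been missed. Of the genes that passed, 171 of 358 higher and 540 of 775 lower ones differed at least 2-fold, and the rest differed less.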
